A study of Mus musculus with 8 samples.

Results

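The 10 genes described here mark the mural cells of blood vessels, that is vascular smooth muscle cells and pericytes. They were taken by name, all 10 were found among the 55488 genes of each deposited table, and all 10 passed the filter on low counts. Acta2, Myh11, Tagln, Cnn1 and Smtn encode contractile and cytoskeletal proteins of smooth muscle. Rgs5, Pdgfrb and Cspg4 mark pericytes, and Abcc9 and Kcnj8 encode the subunits of the vascular ATP-sensitive potassium channel. Expression was measured by bulk RNA-seq of dorsal skin in 4 libraries of TPH1 knockout mice and 4 libraries of WT mice, all aged 3 months. The labels give the genotype as TPH1 knockout and name no allele, strain or sex, and no label says whether each library came from its own mouse, so the p-values here rest on variation among libraries that may be technical. In bulk skin, fewer cells of a type and less RNA per cell cannot be told apart.

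Tph1 encodes tryptophan hydroxylase 1, which sets the pace of serotonin production in peripheral tissues. Serotonin, named for its effect on vessel tone, acts on receptors of smooth muscle and endothelium and can constrict or relax a vessel depending on the receptor and the vascular bed. Smooth muscle cells hold arterioles under tone through actin and myosin, with transcription of the contractile genes driven by SRF and its cofactor myocardin through CArG boxes. Pericytes sit on capillaries and are recruited by endothelial PDGF-B acting on the receptor PDGFR-beta. Skin also holds smooth muscle outside vessels, in the arrector muscles of hair follicles, and the follicle sheath has contractile cells that carry Acta2.

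The libraries held 20971362 to 24463068 expected counts in TPH1 knockout and 20531601 to 24678638 in WT. Tph1 had 0 counts in each of the 4 TPH1 knockout libraries, against 18, 0, 27 and 11 counts in WT replicates 1 to 4, so WT replicate 2 could not be told from TPH1 knockout by this gene. TPH1 knockout replicate 3 and WT replicate 1 stood apart within their genotypes in the effective length of Cnn1, and WT replicate 1 also in the CPM of Myh11. Both were left out together in a fit chosen after seeing the data, which gave 70 called genes in all and 0 of the 10. Of 16908 genes tested, 110 were called between the genotypes (edgeR quasi-likelihood test, Benjamini-Hochberg adjusted p under 0.05).

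None of the 10 mural cell genes passed the test in TPH1 knockout against WT skin, where 0.651% of all tested genes did. Their log2 fold changes ran from -0.08 for Acta2 to 0.76 for Abcc9, with a median of 0.11 beside 0.03 for all tested genes. Of the 10, 8 had a positive log2 fold change, against 53.1% of tested genes. At an unadjusted p under 0.05 there was 1 member, Rgs5, beside 17.6% of tested genes. It was also the 1 member whose TPH1 knockout libraries all lay above the WT libraries, a pattern found in 5.39% of tested genes, with 0 members lying all below, a pattern found in 5.65%. In either direction 11.0% of tested genes had no overlap, which is close to the share of 1 in 10 members.

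**Figure D1:**
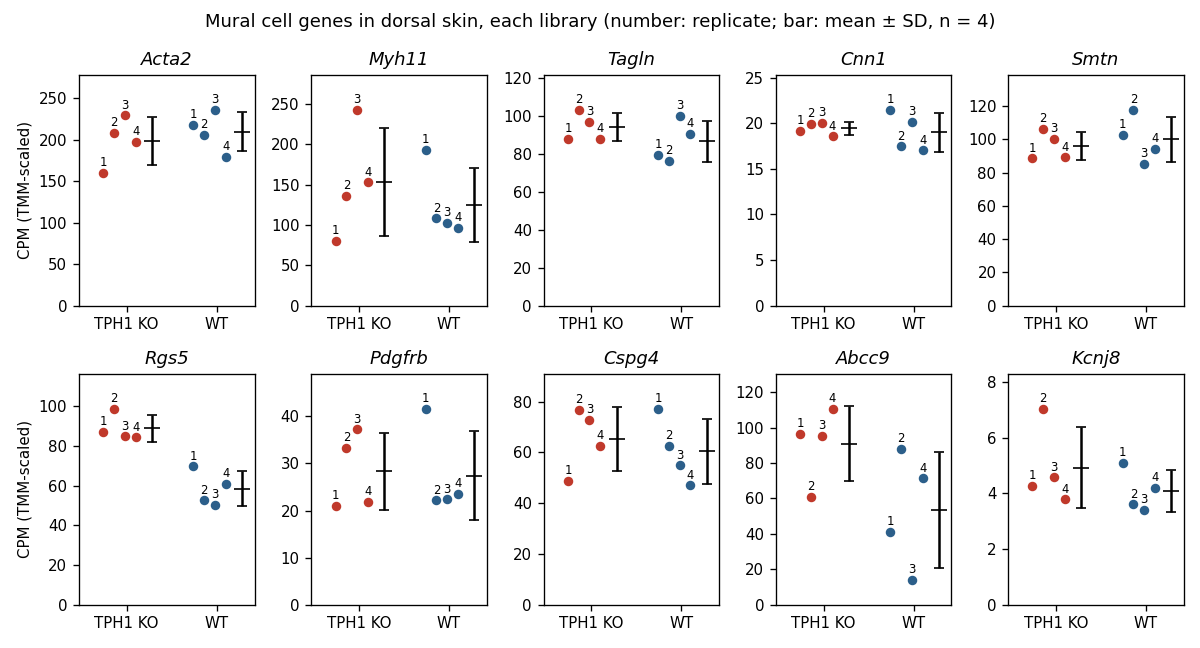
Level of each of the 10 mural cell genes in CPM (counts scaled to library size, y axes from 0) in the 4 TPH1 knockout libraries (red, left) and the 4 WT libraries (blue, right), with the replicate number above each point and the mean ± SD as a black bar. The genotypes overlap in 9 genes, while the 4 TPH1 knockout values of Rgs5 (84.4 to 98.7 CPM) lie above the 4 WT values (50.4 to 69.8 CPM).

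The sequences upstream of Acta2 and Rgs5 are shown because the first is a textbook case of control through CArG boxes and the second was the mural gene with the clearest separation. RefSeq (GRCm38.p6) gave windows for 7 of the 10 genes, all but Myh11, Tagln and Pdgfrb, and the 250 bases before the annotated start were searched on both strands. The strict CArG box (CC, 6 bases of A or T, GG, in 1.47% of 32851 windows) and the letters TATAAA (in 12.4%) were found in 0 of the 7, and the definitions were then loosened, so the matches below were found only after that. A CArG box, with at most 1 of its 6 central bases other than A or T, was found in 8.59% of windows and a TATA motif (TATAAA or TATATA) in 15.6%. Acta2 held 2 CArG boxes and no TATA motif. They run over positions -84 to -75 and -34 to -25 from the RefSeq start and are in capitals. The GENCODE gene span of Acta2, given with its values, begins 217 bases further upstream, so 217 of the 250 bases and both boxes lie inside that span. Rgs5 held no CArG box and 1 TATATA at -30 to -25, also in capitals. The other 5 windows held neither motif, which says only that these letters are not in these windows. The Acta2 window is chr19:34255374-34255623 on the minus strand and the Rgs5 window is chr1:169655251-169655500 on the plus strand.
Acta2: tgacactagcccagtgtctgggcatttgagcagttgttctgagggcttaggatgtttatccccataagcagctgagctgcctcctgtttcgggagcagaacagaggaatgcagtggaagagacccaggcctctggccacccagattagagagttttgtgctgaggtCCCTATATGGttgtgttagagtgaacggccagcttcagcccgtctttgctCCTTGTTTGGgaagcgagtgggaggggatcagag
Rgs5: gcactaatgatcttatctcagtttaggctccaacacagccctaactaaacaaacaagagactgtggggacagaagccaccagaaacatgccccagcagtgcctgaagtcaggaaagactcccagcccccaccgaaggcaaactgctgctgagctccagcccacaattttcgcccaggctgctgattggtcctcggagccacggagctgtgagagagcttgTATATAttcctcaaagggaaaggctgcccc

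None of the 5 contractile genes among the 10 was called between the genotypes, and the intervals of Acta2, Tagln, Cnn1 and Smtn were narrow. Acta2 (ENSMUSG00000035783), which encodes smooth muscle alpha-actin, the main thin filament actin of these cells, lies at positions 34241090 to 34255590 of chromosome 19, minus strand (GRCm38). It had 160, 208, 229 and 197 CPM in TPH1 knockout replicates 1 to 4, against 218, 206, 236 and 179 CPM in WT replicates 1 to 4. The lowest library was TPH1 knockout replicate 1 and the highest WT replicate 3, with the remaining values of both genotypes interleaved. The log2 fold change was -0.08 ± 0.15 (SE, adjusted p = 0.817 by edgeR), with a 95% interval of -0.42 to 0.26 on the log2 scale. Acta2 shares most of its coding sequence with the skeletal actin gene Acta1, which had 17208 ± 5075 CPM in TPH1 knockout and 11345 ± 7417 CPM in WT (SD, n = 4 each). RSEM divides reads that match both genes by probability, which can leave expected counts that are not whole numbers. Those of Acta2 were 3449, 4995, 5257 and 4335 in TPH1 knockout and 5755, 4636.2, 5241.04 and 3980 in WT. Whether any skeletal actin reads were assigned to Acta2 was not tested.

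Cnn1 (ENSMUSG00000001349), at 22099216 to 22109630 of chromosome 9 (plus strand), encodes calponin 1, an actin-binding protein of differentiated smooth muscle. Its values were 19.2, 19.9, 20.0 and 18.6 CPM in TPH1 knockout and 21.4, 17.5, 20.2 and 17.0 CPM in WT. The TPH1 knockout values all fell inside the WT range, and the 95% interval allows a fold of 0.846 to 1.23. Tagln (ENSMUSG00000032085), at 45929619 to 45936058 of chromosome 9 (minus strand), encodes the calponin-related protein SM22-alpha. It had 87.9, 103, 96.6 and 87.8 CPM in TPH1 knockout and 79.4, 76.3, 99.8 and 90.5 CPM in WT (log2 fold change 0.12 ± 0.12 SE, adjusted p = 0.639 by edgeR, and 0.05 without WT replicate 2). WT replicates 1 and 2 were the lowest for Tagln, and the other libraries of both genotypes overlapped. Tagln overlaps Pcsk7 on the opposite strand, and since the library kit does not mark strand, reads in the overlap cannot be assigned. Pcsk7 was at 31.3 ± 2.56 CPM in TPH1 knockout and 29.8 ± 1.88 CPM in WT (SD, n = 4 each).

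Smtn (ENSMUSG00000020439), at 3517523 to 3540612 of chromosome 11 (minus strand), encodes smoothelin, a protein of contractile smooth muscle. It had 88.6, 106, 100.2 and 89.3 CPM in TPH1 knockout and 103, 118, 85.3 and 94.5 CPM in WT. The highest and the lowest value were both WT libraries, and the log2 fold change was -0.06 ± 0.13 (SE, adjusted p = 0.846 by edgeR). Myh11 (ENSMUSG00000018830), at 14194535 to 14291372 of chromosome 16 (minus strand), encodes the smooth muscle myosin heavy chain. It varied more than the other contractile genes, with 80.5, 136, 242 and 153 CPM in TPH1 knockout and 193, 108, 102 and 96.6 CPM in WT. TPH1 knockout replicate 3 and WT replicate 1 were the highest, and TPH1 knockout replicate 1 the lowest. The spread within TPH1 knockout (SD 67.1 CPM) and within WT (SD 45.7 CPM) exceeded the difference of the means, which were 153 CPM in TPH1 knockout and 125 CPM in WT. The Myh11 log2 fold change was 0.29 ± 0.33 (SE, adjusted p = 0.672 by edgeR), -0.02 without TPH1 knockout replicate 3 and 0.58 without WT replicate 1.

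Of the pericyte genes, Rgs5 was 1.52-fold higher in TPH1 knockout skin without passing the adjusted threshold. Rgs5 (ENSMUSG00000026678), at 169655501 to 169695813 of chromosome 1 (plus strand), encodes a regulator of G protein signalling that shortens signals from G protein-coupled receptors in pericytes and arteriolar smooth muscle. It had 87.3, 98.7, 84.8 and 84.4 CPM in TPH1 knockout replicates 1 to 4, against 69.8, 52.5, 50.4 and 60.8 CPM in WT replicates 1 to 4. The lowest TPH1 knockout library exceeded the highest WT library, and the means were 88.8 ± 6.73 CPM in TPH1 knockout and 58.4 ± 8.83 CPM in WT (SD, n = 4 each). The log2 fold change was 0.61 ± 0.13 (SE), with an unadjusted p of 0.000979 and an adjusted p of 0.0739 by edgeR's quasi-likelihood test, and a 95% interval for the fold of 1.24 to 1.86. The DESeq2 Wald test, which called 5.82% of tested genes, 2.02% as higher in TPH1 knockout, gave Rgs5 an adjusted p of 0.00311 on the same counts. Over all 18 alternatives the Rgs5 log2 fold change ran from 0.54 to 0.72 and the adjusted p from 0.00311 to 0.254, and DESeq2 alone called it. Without TPH1 knockout replicate 3 and WT replicate 1 the value was 0.72 (adjusted p = 0.0629 by edgeR). In the authors' normalized signal the TPH1 knockout libraries were also all above the WT libraries, with a log2 ratio of the means of 0.61. On the TPM scale they were not: Rgs5 had 23.8, 31.5, 33.2 and 25.3 TPM in TPH1 knockout and 25.7, 17.2, 16.7 and 17.5 TPM in WT, so WT replicate 1 lay above TPH1 knockout replicates 1 and 4. The effective length of Rgs5 hardly varied (3905 to 3953 bases), so its TPM and CPM differed mainly by the scaling of each library. With effective lengths as an offset, the Rgs5 log2 fold change was 0.62 (adjusted p = 0.0868 by edgeR).

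Of other regulators of G protein signalling, Rgs4, which is also expressed in pericytes, was at 4.91 ± 0.895 CPM in TPH1 knockout and 5.20 ± 1.99 CPM in WT (SD, n = 4 each, adjusted p = 0.912 by edgeR). Rgs2, a related gene that dampens vasoconstrictor signals, had 17.0, 21.2, 23.5 and 23.5 CPM in TPH1 knockout and 72.5, 29.7, 60.1 and 35.5 CPM in WT. All TPH1 knockout values of Rgs2 lay below all WT values, a pattern found in 5.65% of tested genes (log2 fold change -1.21 ± 0.27, adjusted p = 0.0851 by edgeR). Rgs16 was at 1.65 ± 1.22 CPM in TPH1 knockout and 5.22 ± 3.14 CPM in WT (SD, n = 4 each, adjusted p = 0.220 by edgeR). DESeq2 alone of 18 alternatives called Rgs2. Of 21 immediate early genes, given further on, 2 fell in TPH1 knockout, beside 0.532% of tested genes, and both calls were lost in most fits that left out 1 library. The median of the 21 was -1.72 on the log2 scale, and their part in the Rgs2 value was not tested.

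Pdgfrb (ENSMUSG00000024620), at 61045150 to 61085061 of chromosome 18 (plus strand), encodes the receptor through which endothelial PDGF-B recruits pericytes, and dermal fibroblasts express it too. Its values were 21.0, 33.3, 37.3 and 21.8 CPM in TPH1 knockout and 41.6, 22.2, 22.4 and 23.5 CPM in WT. WT replicate 1 was far above the other WT libraries, while TPH1 knockout replicates 2 and 3 lay above replicates 1 and 4. The log2 fold change was 0.05 ± 0.26 (SE, adjusted p = 0.942 by edgeR), and 0.32 without WT replicate 1. Beside it, the level of 12 fibroblast genes, all tested, was 7.38 in WT replicate 1 and 5.83 to 6.33 in the other WT libraries, as a mean of log2(CPM + 1). The summed level of these fibroblast genes was 798 to 2282 CPM in TPH1 knockout and 1090 to 4130 CPM in WT, with no marker at 0, and their part in the Pdgfrb values was not tested.

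Cspg4 (ENSMUSG00000032911), at 56865033 to 56899870 of chromosome 9 (plus strand), encodes the NG2 proteoglycan of the pericyte surface. It had 48.8, 76.8, 72.8 and 62.6 CPM in TPH1 knockout and 77.1, 62.5, 54.9 and 46.9 CPM in WT. Both genotypes spanned nearly the same range, and the log2 fold change was 0.11 ± 0.19 (SE, adjusted p = 0.783 by edgeR). Cspg4 RNA can also come from glial and pigment cells, and of 10 Schwann cell and melanocyte genes 9 were tested and 0 called (median 0.03 on the log2 scale).

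The channel genes Abcc9 and Kcnj8 are neighbours on the minus strand of chromosome 6 and differed in how they varied. Abcc9 (ENSMUSG00000030249), from 142587862 to 142702315, encodes the sulfonylurea receptor SUR2, whose splice forms serve vascular smooth muscle and also cardiac and skeletal muscle. It had 96.3, 60.9, 95.4 and 111 CPM in TPH1 knockout and 41.1, 88.0, 14.02 and 71.4 CPM in WT. The WT libraries were widely scattered, with WT replicate 3 lowest, and the genotypes overlapped. The log2 fold change of 0.76 ± 0.45 (SE, adjusted p = 0.399 by edgeR) was the largest of the 10 genes and the least precise. It was 0.44 without WT replicate 3 and 1.11 without WT replicate 2. Kcnj8 (ENSMUSG00000030247), from 142564837 to 142571614, encodes the pore subunit Kir6.1 and was the least expressed of the 10. Its values were 4.26, 7.04, 4.57 and 3.78 CPM in TPH1 knockout and 5.10, 3.60, 3.42 and 4.19 CPM in WT. TPH1 knockout replicate 2 was the highest, the rest overlapped, and the log2 fold change was 0.27 ± 0.26 (SE, adjusted p = 0.606 by edgeR). It was 0.04 without that library.

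Abcc9 varied with the skeletal muscle genes across the libraries. In mouse skin, skeletal muscle lies under the dermis as the panniculus carnosus. All 20 skeletal muscle genes were tested, none was at 0 in any library and 0 were called, their median on the log2 scale being 0.47. The summed level of these genes was 71710 to 128765 CPM in TPH1 knockout and 17788 to 116570 CPM in WT, with WT replicate 3 the lowest and WT replicate 1 next. Across the 8 libraries, which differ in depth and share that muscle content, the muscle level and log2(CPM + 1) of Abcc9 had r = 0.98 and rho = 0.93, given as a description. Without WT replicates 1 and 3, the libraries farthest from the median muscle level, r was 0.74 over 6 libraries. For Kcnj8 r was 0.10 over the 8 libraries and -0.72 without those 2, and for Rgs5 it was 0.50, or -0.17 without those 2 libraries. The same relation was r = -0.65 for Acta2, or -0.54 without those 2 libraries. These values come from 110 relations of the 10 genes with 11 lists, in which Abcc9 and muscle had the largest r. The next largest for Abcc9 was with the 30 further contractile genes (r = 0.93, rho = 0.60, and r = 0.64 without WT replicates 2 and 3), a list that includes genes skeletal muscle also expresses. Abcc9 ran against the immediate early level (r = -0.86, rho = -0.98) and the adipocyte level (r = -0.59, rho = -0.90), so several features of the libraries moved with it. The part of muscle content in the difference of Abcc9 between the genotypes was not tested. Kcnj11, the pore gene of the other ATP-sensitive channel pair and of skeletal muscle, was at 67.8 ± 19.7 CPM in TPH1 knockout and 43.8 ± 26.0 CPM in WT (SD, n = 4 each, adjusted p = 0.472 by edgeR).

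**Figure D2:**
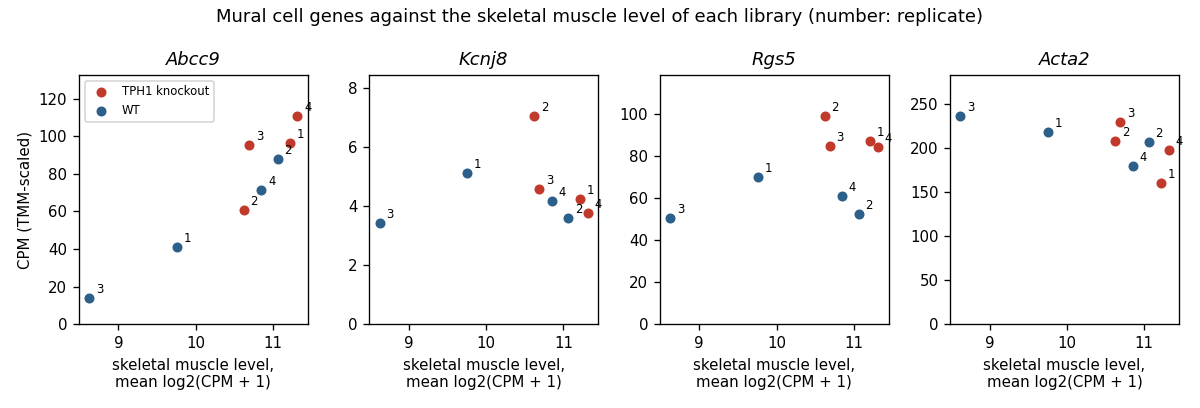
CPM of Abcc9, Kcnj8, Rgs5 and Acta2 (y axes from 0) against the skeletal muscle level of each library (x axis, mean log2(CPM + 1) of 20 genes), with TPH1 knockout in red, WT in blue and the replicate number beside each point. Abcc9 climbs with the muscle level, with 14.02 CPM in WT replicate 3 at the low end and 111 CPM in TPH1 knockout replicate 4 at the high end, while the 4 TPH1 knockout points of Rgs5 lie above all WT points.

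**Figure D3:**
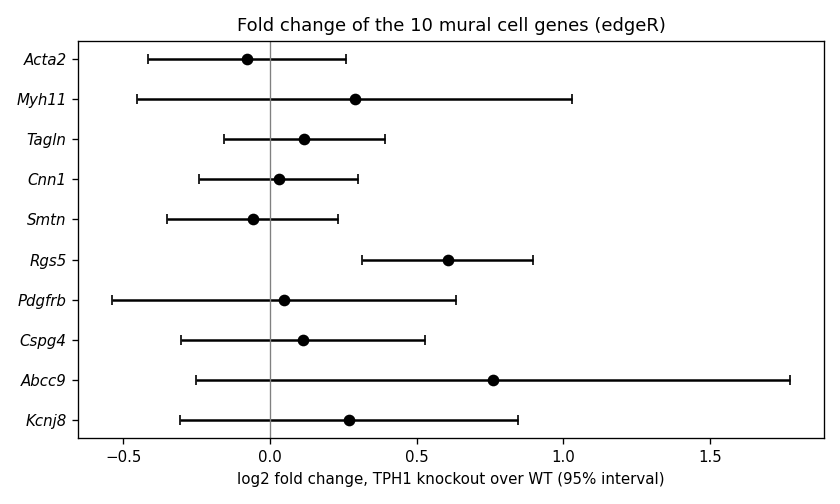
Log2 fold change of each mural cell gene, TPH1 knockout over WT (x axis), with its 95% interval from the edgeR fit. The interval of Rgs5 (0.31 to 0.90) lies above 0 before adjustment over all tested genes, the other 9 include 0, and Cnn1 (-0.24 to 0.30) and Tagln (-0.16 to 0.39) are among the narrow ones.

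Compared per length, in TPM, which divides by effective length, Acta2, Tagln, Smtn and Myh11 came first. Acta2 was highest at 143 ± 52.6 TPM in TPH1 knockout and 145 ± 28.1 TPM in WT (SD, n = 4 each), followed by Tagln at 83.0 ± 17.3 TPM in TPH1 knockout and 77.8 ± 9.84 TPM in WT. Smtn came next, at 61.0 ± 9.96 TPM in TPH1 knockout and 63.5 ± 8.57 TPM in WT. Myh11, Rgs5, Cspg4, Cnn1, Abcc9, Pdgfrb and Kcnj8 followed, with means over the 8 libraries of 29.1, 23.8, 19.7, 12.98, 12.5, 6.95 and 2.58 TPM. Within genotypes the order differed in places: Abcc9 averaged 15.7 TPM and Cnn1 13.5 TPM in TPH1 knockout, and Cspg4 averaged 20.2 TPM and Rgs5 19.2 TPM in WT. Acta2 exceeded Tagln, Smtn exceeded Myh11 and Pdgfrb exceeded Kcnj8 in 8 of 8 libraries each. Myh11 exceeded Rgs5 in only 5 of 8 libraries and Cnn1 exceeded Abcc9 in 4 of 8, so these neighbours did not differ beyond their spread. The other neighbours kept their order in 6 or 7 of 8 libraries. TPH1 knockout replicate 3 had the most TPM of Acta2 (215), Tagln (104), Myh11 (59.4), Rgs5 (33.2), Cnn1 (22.5) and Abcc9 (20.2) of the 8 libraries. In CPM only Myh11 of these genes was highest in that library. Acta2 was highest in CPM in WT replicate 3, Cnn1 in WT replicate 1, Tagln and Rgs5 in TPH1 knockout replicate 2 and Abcc9 in TPH1 knockout replicate 4.

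The effective gene length, which RSEM derives from the mix of transcripts it assigns to a gene, set TPH1 knockout replicate 3 and WT replicate 1 apart for some of the genes. For Cnn1 it was 2209, 2161, 1361 and 2090 bases in TPH1 knockout and 1662, 2223, 2132 and 2204 bases in WT, shortest in TPH1 knockout replicate 3 and then in WT replicate 1. Cspg4 was longest in those same libraries, with 3755, 3884, 5264 and 4337 bases in TPH1 knockout and 4515, 4009, 3476 and 3506 bases in WT. Over all genes the 90th percentile of the absolute log2 deviation in length was 0.285 in TPH1 knockout replicate 3 and 0.174 to 0.238 in the other 7 libraries, with 0.185 in WT replicate 1. In CPM, the median absolute log2 deviation over all genes was largest in WT replicate 1 (0.230) and was 0.126 to 0.221 in the other 7 libraries. For Acta2 the length was 1628 bases in TPH1 knockout replicate 3 and 1842 to 1892 bases in the other 7 libraries. Rgs5 held 3905 to 3951 bases in TPH1 knockout and 3940 to 3953 bases in WT, and its log2 fold change was 0.62 with the effective lengths as an offset. With that offset the log2 fold changes of Acta2, Cnn1 and Cspg4 were 0.0013, 0.14 and -0.0073 (adjusted p = 0.998, 0.793 and 0.988 by edgeR).

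**Figure D4:**
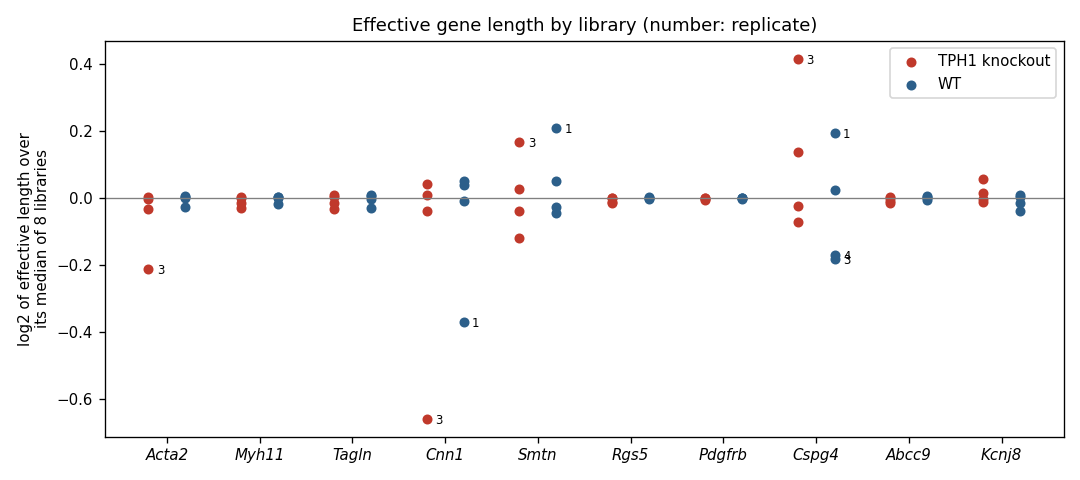
Effective length of each mural cell gene in each library, as log2 of the ratio to the gene's median of 8 libraries (y axis), with TPH1 knockout in red and WT in blue and the replicate number beside points more than 0.15 from 0. Cnn1 is shortest in TPH1 knockout replicate 3 (1361 bases) and WT replicate 1 (1662 bases), and Rgs5, Pdgfrb and Abcc9 show almost no spread.

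Among themselves the 10 genes did not move as a single block. Across the 8 libraries, Myh11, Pdgfrb and Cspg4 were most alike, with pairwise r of 0.82, 0.82 and 0.81 on log2(CPM + 1), and each of them was highest among WT libraries in replicate 1. Myh11 also went with the levels of the vessel tone list (r = 0.96), the Schwann cell and melanocyte list (r = 0.93) and the endothelial list (r = 0.88). Without TPH1 knockout replicate 3 and WT replicate 1, the first 2 were r = 0.88 and 0.75. The endothelial value was 0.91 without TPH1 knockout replicate 3 and WT replicate 2. The part of cell content in Myh11 was not tested. Acta2 and Abcc9 ran in opposite directions (r = -0.54), and Rgs5 and Acta2 were at r = -0.27. Of 11548 other genes with a mean of at least 5 CPM, Kdsr, Acsf2, Ncoa7, Plekhh2 and She were most like the mean of the 5 contractile genes (r = 0.98 to 0.97 over 8 libraries). Serinc1, Gpatch8, Zfhx2, Lypla1 and Gcc2 were most like the mean of the other 5 (r = 0.98 to 0.96). With 8 libraries and 11548 candidates, such values are a description of these libraries.

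Of 30 further genes of smooth muscle contraction and cytoskeleton, all tested, 1 fell, beside 0.532% of tested genes, 0 rose and 29 did not pass, with a median log2 fold change of 0.05. Cnn2, which encodes the calponin of non-muscle cells and is expressed in epidermis and leukocytes as well, had 67.8, 65.2, 65.7 and 66.0 CPM in TPH1 knockout and 119, 104, 125 and 97.6 CPM in WT. The 4 TPH1 knockout libraries were tightly grouped below all WT libraries, with a log2 fold change of -0.75 ± 0.11 (SE, adjusted p = 0.0324 by edgeR). Cnn2 was called in 8 of 18 alternatives and in 2 of 8 fits that left out 1 library, with values from -0.82 to -0.69. The small heat shock gene Hspb1 (-0.94 ± 0.18 SE, adjusted p = 0.0576 by edgeR), the LIM protein gene Csrp1 (-0.56 ± 0.17, adjusted p = 0.153) and the light chain gene Myl6 (-0.50 ± 0.19, adjusted p = 0.218) did not pass. The 30 genes ran from -0.94 for Hspb1 to 1.52 ± 0.75 for Pln, the phospholamban gene (adjusted p = 0.322). Pln was low, at 1.49 ± 0.453 CPM in TPH1 knockout and 0.514 ± 0.596 CPM in WT (SD, n = 4 each). It passed the filter on low counts through its TPH1 knockout libraries, so its fold change was not independent of the filter. Of the 30, 4 lay wholly below WT, namely Cnn2, Hspb1, Csrp1 and Myl6, beside 5.65% of tested genes. A further 2 lay wholly above WT, beside 5.39% of tested genes. These were the focal adhesion gene Tns1 (0.36 ± 0.15, adjusted p = 0.262) and the LIM protein gene Fhl1 (1.03 ± 0.40, adjusted p = 0.233), which skeletal muscle also expresses.

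Of 25 further pericyte genes, all tested, 0 were called, with 12 positive log2 fold changes and a median of -0.08. Art3 (0.53 ± 0.20 SE, adjusted p = 0.225 by edgeR), Ndufa4l2 (-0.85 ± 0.33, adjusted p = 0.228), Foxc2 (0.77 ± 0.33, adjusted p = 0.271) and Gm13889 (-0.54 ± 0.25, adjusted p = 0.302) had the smallest p. Art3 was the 1 gene of the 25 wholly above WT, beside 5.39% of tested genes, and 0 lay wholly below. Art3 and the summed skeletal muscle level were both lowest in WT replicate 3, then WT replicate 1. TPH1 knockout replicate 1 had the highest muscle sum but the least Art3 of its genotype. The part of muscle content in Art3 was not tested. Notch3, the Notch receptor of mural cells, was at 103 ± 24.9 CPM in TPH1 knockout and 95.8 ± 12.0 CPM in WT (SD, n = 4 each). Mcam, an adhesion molecule of mural and endothelial cells, was at 51.0 ± 14.9 CPM in TPH1 knockout and 65.2 ± 8.46 CPM in WT, and both sets overlapped. Higd1b, a marker of capillary pericytes, was near 1 CPM in both genotypes, at 0.953 ± 0.177 CPM in TPH1 knockout and 1.04 ± 0.364 CPM in WT.

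Of 39 listed receptors, channels, kinases and cyclic nucleotide enzymes, 34 were tested and 0 called, with a median log2 fold change of 0.06. Beside Rgs2, the smallest p belonged to Abcc8, the sulfonylurea receptor gene of the other channel pair, with 1.67, 2.08, 1.87 and 1.77 CPM in TPH1 knockout and 1.02, 0.489, 0.225 and 0.585 CPM in WT. All TPH1 knockout values of Abcc8 exceeded all WT values, a pattern found in 5.39% of tested genes (log2 fold change 1.65 ± 0.43 SE, adjusted p = 0.117 by edgeR). Abcc8 was low in both genotypes and passed the filter on low counts through its TPH1 knockout libraries. Its separation and fold change were therefore not independent of the filter. The noradrenaline receptor gene Adra2c (-0.67 ± 0.24 SE) and the endothelin receptor gene Ednra (0.57 ± 0.21 SE) had adjusted p of 0.213 and 0.214 by edgeR. Serotonin receptor genes were near the limit of measurement, and Htr2b and Htr7 did not pass the filter. Htr2a, whose receptor mediates contraction, was at 1.13 ± 0.637 CPM in TPH1 knockout and 0.956 ± 0.617 CPM in WT (SD, n = 4 each, adjusted p = 0.872 by edgeR). Htr1b, whose receptor can also constrict vessels, was at 0.650 ± 0.0475 CPM in TPH1 knockout and 0.261 ± 0.188 CPM in WT (1.3 ± 0.50 SE on the log2 scale, adjusted p = 0.226 by edgeR). All TPH1 knockout libraries lay above all WT libraries, a pattern found in 5.39% of tested genes. Htr1b passed the filter on low counts through its TPH1 knockout libraries, so this separation was not independent of the filter. Htr1d was at 0.954 ± 0.506 CPM in TPH1 knockout and 0.932 ± 0.423 CPM in WT.

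Of 19 listed names for SRF, its cofactors and regulators, including older symbols of listed genes, 16 genes were tested and 0 called, with a median log2 fold change of 0.15. Srf itself was at 61.3 ± 9.42 CPM in TPH1 knockout and 78.6 ± 21.1 CPM in WT (SD, n = 4 each, adjusted p = 0.367 by edgeR). Myocd, which encodes myocardin, was low, at 1.60 ± 1.15 CPM in TPH1 knockout and 0.629 ± 0.438 CPM in WT (adjusted p = 0.320 by edgeR). Myocd passed the filter on low counts through its TPH1 knockout libraries, so its difference was not independent of the filter. The cofactor gene Mrtfb (0.42 ± 0.13 SE), Klf4, a repressor of the contractile genes that keratinocytes also express strongly (-0.69 ± 0.23), Foxo4 (0.60 ± 0.22) and the Notch target Hey1 (0.49 ± 0.20) had adjusted p of 0.163, 0.183, 0.217 and 0.259 by edgeR.

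The vessel lining was measured alongside. Of 20 endothelial genes, all tested and none at 0 in any library, 0 were called, with a median log2 fold change of 0.10 and a summed level of 536 to 912 CPM in TPH1 knockout and 554 to 860.5 CPM in WT. Sox18, Cldn5, Plvap and Sox17 had the smallest p, with log2 fold changes of 0.64, -0.64, -0.44 and 0.57 and edgeR adjusted p of 0.202, 0.289, 0.350 and 0.369. The summed endothelial level was highest in TPH1 knockout replicate 3 and WT replicate 1, the libraries with the most Myh11. Of 20 ligands and receptors between endothelium and mural cells, all tested, 0 were called, with a median of 0.04. Pdgfb, the ligand of Pdgfrb, was at 33.5 ± 6.42 CPM in TPH1 knockout and 44.5 ± 8.37 CPM in WT (SD, n = 4 each, adjusted p = 0.271 by edgeR). Hbegf, Tgfb1 and Pdgfd had log2 fold changes of -2.87, -0.51 and 0.97 with edgeR adjusted p of 0.0977, 0.135 and 0.219.

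The 20 skeletal muscle genes all had positive log2 fold changes, with the smallest p in Tnni1 (2.62), Myh1 (1.65), Myh2 (1.08) and Tnnt1 (1.16). Of 12 fibroblast genes 3 were positive, with a median of -0.32 and the smallest p in Cd248 (-0.87), Clec3b (-0.55), Col1a1 (-1.29) and Col3a1 (-0.996). For Cd248, Col1a1 and Col3a1, WT replicate 1 was far above the other WT libraries. Col1a1 had 921 CPM there against 171 to 215 CPM, and Col3a1 889 CPM against 229 to 282 CPM. Of 10 adipocyte genes 1 was positive, Plin4 at 0.48, with a median of -0.52, and Retn, Cfd and Adipoq were at -0.58, -0.71 and -0.62. None of these 3 lists held a called gene. Of 21 tested immediate early genes, which respond within minutes to stimuli and several of which are SRF targets, 2 fell and 0 rose, with a median of -1.72. Nr4a1 fell by 2.18 and Arc by 3.90 on the log2 scale (adjusted p = 0.0324 and 0.0429 by edgeR). Nr4a1 was called in 11 of 18 alternatives and in 2 of 8 fits without 1 library (adjusted p up to 0.140), and Arc in 7 of 18 and in 1 of 8 (adjusted p up to 0.200, log2 values from -4.32 to -2.82). By edgeR, Fosl1 (-5.64) and Hspa1a (-0.90) had adjusted p of 0.0675 and 0.0718. Fosl1 was near 0 in TPH1 knockout, at 0.267 ± 0.222 CPM, against 13.4 ± 18.1 CPM in WT (SD, n = 4 each), with 40.1 CPM in WT replicate 1. It passed the filter on low counts through its WT libraries, so its fold change was not independent of the filter. The summed immediate early level was 2307 to 5235 CPM in TPH1 knockout and 2989 to 17347 CPM in WT, with no gene at 0, and its part in the mural values was not tested.

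**Figure D5:**
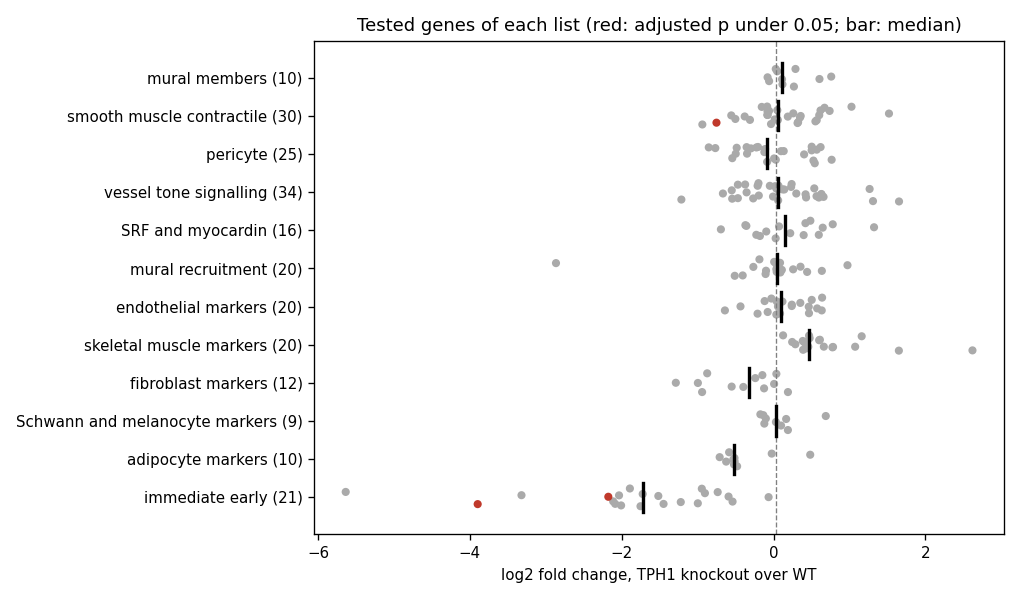
Log2 fold change, TPH1 knockout over WT (x axis), of every tested gene in each list (rows, number tested in brackets), with genes at an edgeR adjusted p under 0.05 in red, the list median as a black bar and the median of all tested genes as a dashed line. The mural, contractile, pericyte, tone and endothelial medians (0.11, 0.05, -0.08, 0.06 and 0.10) lie near 0, beside 0.47 for skeletal muscle and -1.72 for immediate early genes.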

How the data were processed

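Dorsal skin of TPH1 knockout and WT mice was profiled by RNA-seq, 4 libraries each. RNA came from a Rneasy Mini Kit (Qiagen) and library preparation used NEBNext Ultra RNA, per the labels' protocols; that kit does not mark strand. STAR 2.7.6a, RSEM 1.31, DESeq, DESeq2 and GRCm38 are listed in the submitters' processing notes. The expected counts in the deposited tables, per the file headers, are RSEM estimates, not normalized. TPM values, per the file headers, are scaled to gene length and library. Effective gene length is a further deposited column. A matrix of 17382 genes from the authors holds a normalized signal.

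After rounding of the expected counts, differences were tested by edgeR 4.0.16 under R 4.3.3 (filterByExpr with minimum count 10 and minimum total 15, TMM, robust quasi-likelihood F test, genotype as the only term). Benjamini-Hochberg adjustment ran over 16908 genes, with calls at 0.05. CPM are relative to TMM-scaled totals. SE was derived from the fold change and its F statistic (log2 value over root F), and 95% intervals use the t distribution of the fit. Alternatives used DESeq2 1.42.0 and limma 3.58.1 on log2(TPM + 0.5). Scripts were tested on simulated data. Positions come from GENCODE M21 on GRCm38. The genes named outside the 10 are, for each list, the 4 with the smallest p and any called, beside further genes of stated function that lie outside this rule and were chosen with values known. The 5 genes most like the contractile members, and 5 most like the other members, were ranked by Pearson r. Libraries held 20531601 to 24678638 expected counts. Promoter windows are RefSeq's for GRCm38.p6. The members and lists were chosen with earlier results of these data known.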

Additional observations from a re-analysis of the deposited data

Results flagged for a closer look

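Of 152 sets of 4 libraries examined, 15 held a library far from the other 3 of its genotype. Chance flags about 1 set in 20 where sets are independent and normally distributed. These sets share libraries, and many of their genes were named for a small p, so the 15 cannot be weighed against that rate. WT replicate 1 accounted for 9 of the 15. It was high for Myh11 (193 CPM, others 96.6 to 108), Pdgfrb (41.6 CPM, others 22.2 to 23.5), Cd248 (44.4 CPM), Col1a1 (921 CPM) and Col3a1 (889 CPM). It was also high in the levels of the vessel tone list (3.18) and the Schwann cell and melanocyte list (4.17), as mean log2(CPM + 1). The effective length of WT replicate 1 was short for Acta2 (1852 bases, others 1888 to 1892) and for Cnn1 (1662 bases, others 2132 to 2223). TPH1 knockout replicate 3 was short for Cnn1 (1361 bases, others 2090 to 2209) and high for the pigment gene Pmel (19.3 CPM, others 2.78 to 3.83). The remaining single values were Sox18 in TPH1 knockout replicate 4 (9.47 CPM), S100b in TPH1 knockout replicate 1 (7.17 CPM), Adra2c in WT replicate 3 (4.58 CPM) and Ednra in WT replicate 4 (11.2 CPM).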

How the results depend on the processing

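No paired analysis was possible because no label pairs a TPH1 knockout library with a WT library. The 10 members kept a count of 0 called under 17 of 18 alternatives, and DESeq2 called 1, Rgs5, at 0.60 (adjusted p = 0.00311). The number of all genes called was 984 by DESeq2, 27 with library totals only, 31 by limma on log2(TPM + 0.5), 8 to 170 without 1 library, 167 without WT replicate 2 and TPH1 knockout replicate 3 and 70 without WT replicate 1 and TPH1 knockout replicate 3, the last chosen after seeing the data. Against 110, the count was 19, 8, 170 and 14 without TPH1 knockout replicates 1 to 4 and 26, 88, 32 and 27 without WT replicates 1 to 4. The median log2 fold change of the 10 ran from 0.013 to 0.29 with libraries left out, the high end without WT replicate 1. Rgs5, Abcc9, Kcnj8 and Tagln kept their sign in all 18, over ranges of 0.54 to 0.72, 0.44 to 1.11, 0.044 to 0.43 and 0.032 to 0.19, with Kcnj8 at 0.044 without TPH1 knockout replicate 2 and Tagln at 0.050 without WT replicate 2. Uncalled values changed sign, and the cause was not tested: Cnn1 with library totals only (-0.028), Cspg4 and Acta2 with the length offset (-0.0073 and 0.0013), Cspg4 by limma (-0.081), and Cnn1, Myh11 and Pdgfrb without WT replicate 2 and TPH1 knockout replicate 3 (-0.042, -0.11 and -0.22). With 1 or 2 libraries left out the values ran from -0.18 to 0.0050 for Acta2, -0.042 to 0.092 for Cnn1, -0.13 to 0.018 for Smtn, -0.11 to 0.58 for Myh11, -0.22 to 0.32 for Pdgfrb and -0.0026 to 0.25 for Cspg4. The 95% interval of Abcc9 spans folds of 0.840 to 3.42 and that of Kcnj8 0.808 to 1.80.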
